A study of Mus musculus with 14 samples.

Results

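The BCL2 family decides whether a cell keeps its mitochondria sealed, and 10 of its genes were followed here through microglia of the dorsal horn: Bcl2, Bcl2l1, Mcl1, Bcl2a1b, Bcl2a1d, Bax, Bak1, Bcl2l11, Bid and Bad. They were taken by gene symbol from the deposited values, in which all 10 are present among 14329 genes. All 10 were also among the 12645 genes tested, those that reached 10 reads in 7 or more of the 14 libraries, Bak1 in exactly 7.

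The study asked how microglia of the dorsal horn respond to joint inflammation in WT mice and in TASTPM mice, which model Alzheimer's disease. Microglia were sorted as CD45low CD11b+ CX3CR1+ cells, by a gate that also left out Ly6C+ and CCR2+ cells according to the methods, 2000 cells to a sample. They came from the dorsal horn of the spinal cord of 6-month-old mice 5 days after serum transfer (ST). Transcripts were measured by bulk RNA-seq in 4 groups: WT Control ST (3 libraries), WT K/BxN ST (4), TASTPM Control ST (3) and TASTPM K/BxN ST (4). WT mice were C57BL/6. TASTPM mice are heterozygous transgenics on the same background, which carry human APP with the Swedish mutation under the neuronal Thy-1 promoter, so this transgene is not aimed at microglia. K/BxN serum comes from mice with spontaneous autoimmune arthritis and transfers joint inflammation to the recipient, while control animals received pooled serum of KRN/C57 mice. All groups thus received an injection of mouse serum. The methods describe replicates as individual mice, with 3 to 4 mice per group for the RNA-seq. Both sexes were used, and the labels do not give the sex of a library. A sex-linked score (Y-linked transcripts minus Xist, log2 scale) was above 0 in 3 of 4 TASTPM K/BxN ST and 1 of 3 TASTPM Control ST libraries, and in 2 of 4 and 2 of 3 in WT, so the score was not balanced between serum groups.

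The family has 3 arms. Anti-apoptotic proteins (BCL2, BCL-XL from Bcl2l1, MCL1 and A1 from the Bcl2a1 genes) hold the effectors BAX and BAK in check at the mitochondrial outer membrane. The BH3-only proteins (BIM from Bcl2l11, BID and BAD) relieve this restraint or engage the effectors directly, after which cytochrome c is released and caspases are activated. Microglia depend on CSF1 receptor signalling to survive, and A1 and MCL1 are known as short-lived survival proteins of myeloid cells.

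Bcl2a1b and Bcl2a1d are near-identical copies of the A1 gene on mouse chromosome 9, and the first 90 bases of their coding sequence are shown with those of Bcl2a1a, another copy, to show where the copies can and cannot be told apart. Capitals mark the 6 positions in this stretch at which the 3 copies are not all alike.
Bcl2a1b: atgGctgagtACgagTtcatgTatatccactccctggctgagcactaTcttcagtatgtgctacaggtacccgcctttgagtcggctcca
Bcl2a1d: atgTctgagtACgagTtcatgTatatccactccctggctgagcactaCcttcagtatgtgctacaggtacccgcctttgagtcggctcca
Bcl2a1a: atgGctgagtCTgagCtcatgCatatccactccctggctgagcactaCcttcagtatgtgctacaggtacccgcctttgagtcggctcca

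These stretches lie in GRCm39 at chr9:89081413-89081502 on the plus strand for Bcl2a1b, at chr9:88613683-88613772 on the minus strand for Bcl2a1d and at chr9:88839104-88839193 on the plus strand for Bcl2a1a. Over the 516 coding bases before the stop codon, Bcl2a1b and Bcl2a1d differed at 6 positions (98.8% identity), and the longest run without a difference was 217 bases. Of all 150-base windows, the length of 1 sequenced end, 14.3% of the Bcl2a1b transcript and 30.5% of the Bcl2a1d transcript also occur in a transcript of another copy, and the remaining windows are particular to 1 of the 3. How the counting treated the shared reads is not given in the sources used here, so the separate values of these copies are uncertain to that extent and their sum is given beside them.

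The other members are single genes with annotated positions in GRCm39. Bcl2 lies on chromosome 1 from 106465908 to 106642060, Bcl2l11 on chromosome 2 from 127967958 to 128004476, Bcl2l1 on chromosome 2 from 152622582 to 152673655, and Mcl1 on chromosome 3 from 95566026 to 95570487. Bid lies on chromosome 6 from 120862525 to 120894171, Bax on chromosome 7 from 45111015 to 45116325, Bak1 on chromosome 17 from 27238784 to 27247983, and Bad on chromosome 19 from 6918902 to 6929280. Exons of Bid overlap other annotated genes, Bcl2l13 among them, over 3377 of 9796 exonic bases, those of Bad overlap Gpr137 and another gene over 2044 of 4485, and those of Bak1 overlap Ggnbp1 and another gene over 614 of 2407. The library kit as described does not mark strand, so reads in these stretches cannot be told apart by gene. Exons of Bcl2a1b overlap Gm29094, annotated on the same strand, over 401 of 826 bases, the largest share of any of these 4, so its level carries this uncertainty beside that of the shared A1 reads.

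Libraries held 14223015 to 20239175 reads on genes. Every one of 10 microglia markers was listed, and Tmem119, P2ry12, Cx3cr1 and Sall1 had reads in all 14 libraries. In 4 of the 8 K/BxN ST libraries, the first and second of each genotype, 14 neutrophil and monocyte markers (6 of which passed the filter) together took 0.438% to 1.82% of the reads, against 3.59e-04% to 0.00729% in the other 4 K/BxN ST libraries and 1.43e-04% to 0.0165% in the 6 Control ST libraries. The 10 microglia markers took 2.02% to 4.77% in those 4 libraries, 6.42% to 7.08% in the other K/BxN ST libraries and 5.71% to 7.41% in Control ST. Transcripts of the markers that the gate left out were among them. Ly6c2 had 12898 to 29133 normalised counts in those 4 libraries and at most 17.8 in any other, and Ccr2 had 8537 to 27035 and at most 86.0. Ly6g, which defines neutrophils, was at 0 in every Control ST library. The 4 libraries were not alike in the neutrophil markers. In the second WT K/BxN ST library S100a8 and S100a9 stood at 143 and 51.4 normalised counts, below the 969 and 1525 of the third WT Control ST library. Ly6c2 and Ccr2 stood at 12898 and 19661 in that K/BxN ST library. Of 9 T and NK cell markers 0 are listed among the 14329 genes. Markers of border-associated macrophages took 0.0697% to 0.210% in the same 4 libraries and at most 0.0116% in any other, and dendritic cell markers 0.00462% to 0.0467% against at most 0.00134%. These 4 are called the blood-marker libraries, and serum effects are given with and without them. Bulk values do not tell fewer cells of a type from less RNA per cell.

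Normalised to exon length, Mcl1 was the most abundant member in all 14 libraries. Its level was 2171 ± 637 normalised counts per kb of annotated exon (mean ± SD, n = 14). Bcl2a1b followed with 604 ± 169.6 per kb (n = 14), Bcl2a1d with 336 ± 89.2, Bax with 309.6 ± 87.9 and Bcl2l1 with 273 ± 81.2. The BH3-only transcripts were lower, with 135 ± 22.4 per kb for Bid, 91.5 ± 32.7 for Bad and 79.2 ± 15.8 for Bcl2l11. Bcl2 had 20.9 ± 11.2 per kb and Bak1, the partner effector of Bax, 7.02 ± 6.43. Mcl1 was above Bcl2a1b by 3.59-fold on average, and Bcl2a1b was above Bcl2a1d in 13 of 14 libraries. Bcl2a1d, Bax and Bcl2l1 were not separated, each being higher than the next in only 8 of 14 libraries, and the same was true of Bad and Bcl2l11. Bcl2l11 exceeded Bcl2 in 14 of 14 libraries and Bcl2 exceeded Bak1 in 12. Of the summed per-kb level of the 5 anti-apoptotic members, Mcl1 made up 48.2% to 83.3% across libraries. Lengths are those of the union of annotated exons, so a gene with rarely used exons has its level understated.

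**Figure D1:**
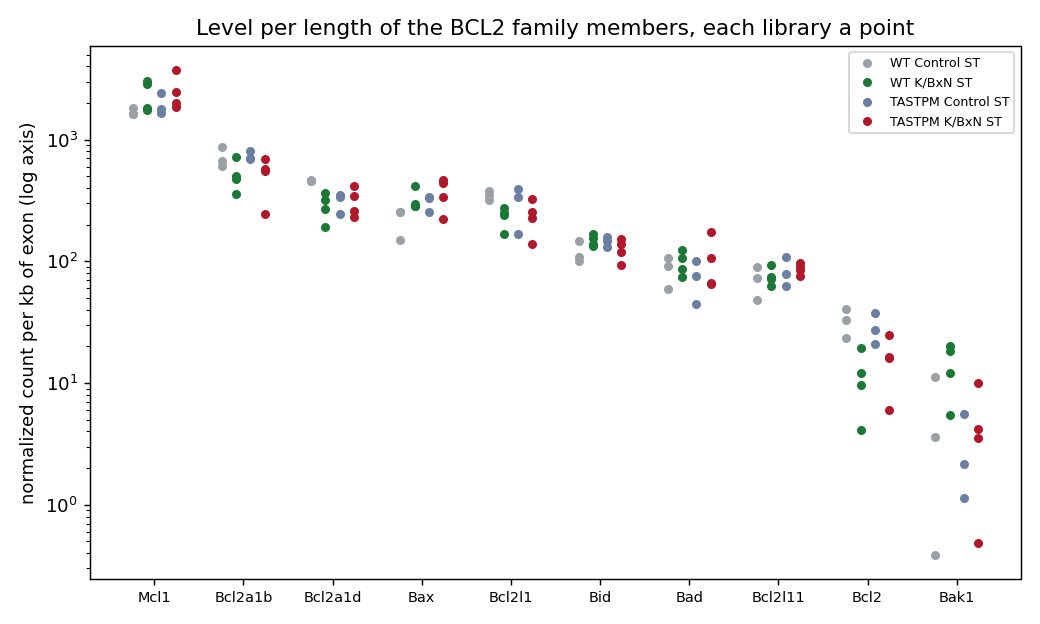
Normalised counts per kb of annotated exon on a log axis for the 10 members, ordered by their mean, with 1 point for each of 14 libraries coloured by group. Mcl1 lies at the top in every library, with a mean of 2171 per kb, and Bcl2 and Bak1 lie at the bottom with means of 20.9 and 7.02.

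The serum response of the family was asked in each genotype by comparing K/BxN ST with Control ST. Bak1 passed the filter through WT K/BxN ST, as given below, and is left out of the counts of members in tests with that group. In WT, limma called 0 of the other members at an adjusted p below 0.05 and an absolute log2 fold change above 1. Of all 12645 genes 0.00791% were called. edgeR and DESeq2 on the recovered reads also called 0 members, against 0% and 1% of all genes. At an unadjusted limma p below 0.05 stood 1 member, Bcl2, which was lower. Of all genes 7.13% stood there, 2.36% lower and 4.77% higher. In TASTPM, limma, edgeR and DESeq2 each called 0 of the 10 members, where 0%, 0% and 0.127% of all genes were called, and 0 members had an unadjusted limma p below 0.05, against 4.22% of all genes. The median log2 fold change of all 10 members, Bak1 among them, was 0.17 in WT and 0.04 in TASTPM, beside 0.06 and 0.01 over all genes tested.

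Bcl2, the founding survival gene of the family, had lower values in all 4 K/BxN ST libraries of WT and the smallest unadjusted limma p of the members there, though not the smallest exact permutation p, which was that of Bax. Libraries are listed in the order of the deposited values, so the blood-marker libraries come first and second in K/BxN ST. After K/BxN serum, the WT libraries held 112, 38.1, 180.4 and 89.4 normalised counts of Bcl2, whereas the WT controls held 306, 217 and 372. For TASTPM these were 149.7, 149.3, 229 and 55.3 after K/BxN serum, with controls at 251, 194 and 348. Every WT K/BxN ST library thus lay below every WT Control ST library, whereas in TASTPM 3 of 4 did. The log2 fold change was −1.66 in WT (standard error, SE, 0.58, adjusted limma p of 0.605; exact permutation p of 0.0571) and −0.98 in TASTPM (SE 0.58, adjusted limma p of 0.964; exact permutation p of 0.143). The smallest p that 4 libraries against 3 allow is 0.0286. Without the blood-marker libraries the log2 fold change of Bcl2 was −1.19 in WT and −1.18 in TASTPM, and without TASTPM K/BxN ST replicate 4 alone the TASTPM value was −0.57.

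Bcl2l1 encodes BCL-XL, the other long-lived guardian of the outer membrane. WT libraries after K/BxN serum held 869, 1231, 1413 and 1284 normalised counts, and WT controls 1623, 1959 and 1786. The 2 groups did not overlap, with a log2 fold change of −0.60 (SE 0.32, adjusted limma p of 0.717; exact permutation p of 0.0571). In WT it was −0.41 without the blood-marker libraries and −0.29 with the neutrophil and monocyte covariate. TASTPM libraries after K/BxN serum held 711, 1155, 1675 and 1306, overlapping their controls at 1749, 855 and 2023. There the log2 fold change was −0.32 (SE 0.32, adjusted limma p of 0.964), and it became 0.03 without the blood-marker libraries. It was −0.09 without K/BxN ST replicate 1, and −0.18, −0.70 and −0.08 without the first, second and last control library.

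Mcl1, whose product is turned over quickly and must be resynthesised, reached 10572, 9919, 6399 and 6165 normalised counts after K/BxN serum in WT, with controls at 6306, 5614 and 5653. After K/BxN serum in TASTPM it reached 12984, 7027, 8546 and 6460.0, with controls at 5809, 6239.6 and 8425. The 3 highest values of the 14 were all blood-marker libraries. The log2 fold change was 0.46 in WT (SE 0.26, adjusted limma p of 0.734) and 0.32 in TASTPM (SE 0.26, adjusted limma p of 0.964), and without the blood-marker libraries 0.10 and 0.14. The TASTPM value of Mcl1 was 0.12 without K/BxN ST replicate 1, 0.022 with the level of the neutrophil and monocyte markers as a covariate and 0.010 with a sex-linked covariate. The WT value of Mcl1 was 0.19 with the neutrophil and monocyte covariate and 0.60 with the sex-linked covariate.

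The A1 copies were compared singly and as a sum. Bcl2a1b stood at 294, 392, 414 and 599.7 normalised counts after K/BxN serum in WT, with controls at 499, 718 and 552. In TASTPM it stood at 203, 469.9, 459 and 575, with controls at 571, 659 and 581.5. In each genotype 3 of 4 K/BxN ST libraries lay below every Control ST library, and the log2 fold changes were −0.50 in WT (SE 0.35, adjusted limma p of 0.774) and −0.60 in TASTPM (SE 0.35, adjusted limma p of 0.964). Without the blood-marker libraries these were −0.22 and −0.23, and without TASTPM K/BxN ST replicate 1 alone the TASTPM value was −0.27. Bcl2a1d stood at 231, 314, 277 and 166 after K/BxN serum in WT, apart from its controls at 392, 395 and 398 (exact permutation p of 0.0571). Its log2 fold change was −0.71 in WT (SE 0.34, adjusted limma p of 0.698). In TASTPM Bcl2a1d stood at 296, 360.5, 222 and 199.7, with controls at 291, 211 and 304 and a log2 fold change of −0.02 (SE 0.34, adjusted limma p of 0.995). Without the blood-marker libraries the values of Bcl2a1d were −0.88 in WT and −0.33 in TASTPM. The TASTPM value was positive in 7 of 24 alternatives, some of which could not change it. With the reads of Bcl2a1a, Bcl2a1b and Bcl2a1d summed as 1 feature, the log2 fold change was −0.49 in WT (adjusted limma p of 0.711) and −0.41 in TASTPM (adjusted limma p of 0.964).

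**Figure D2:**
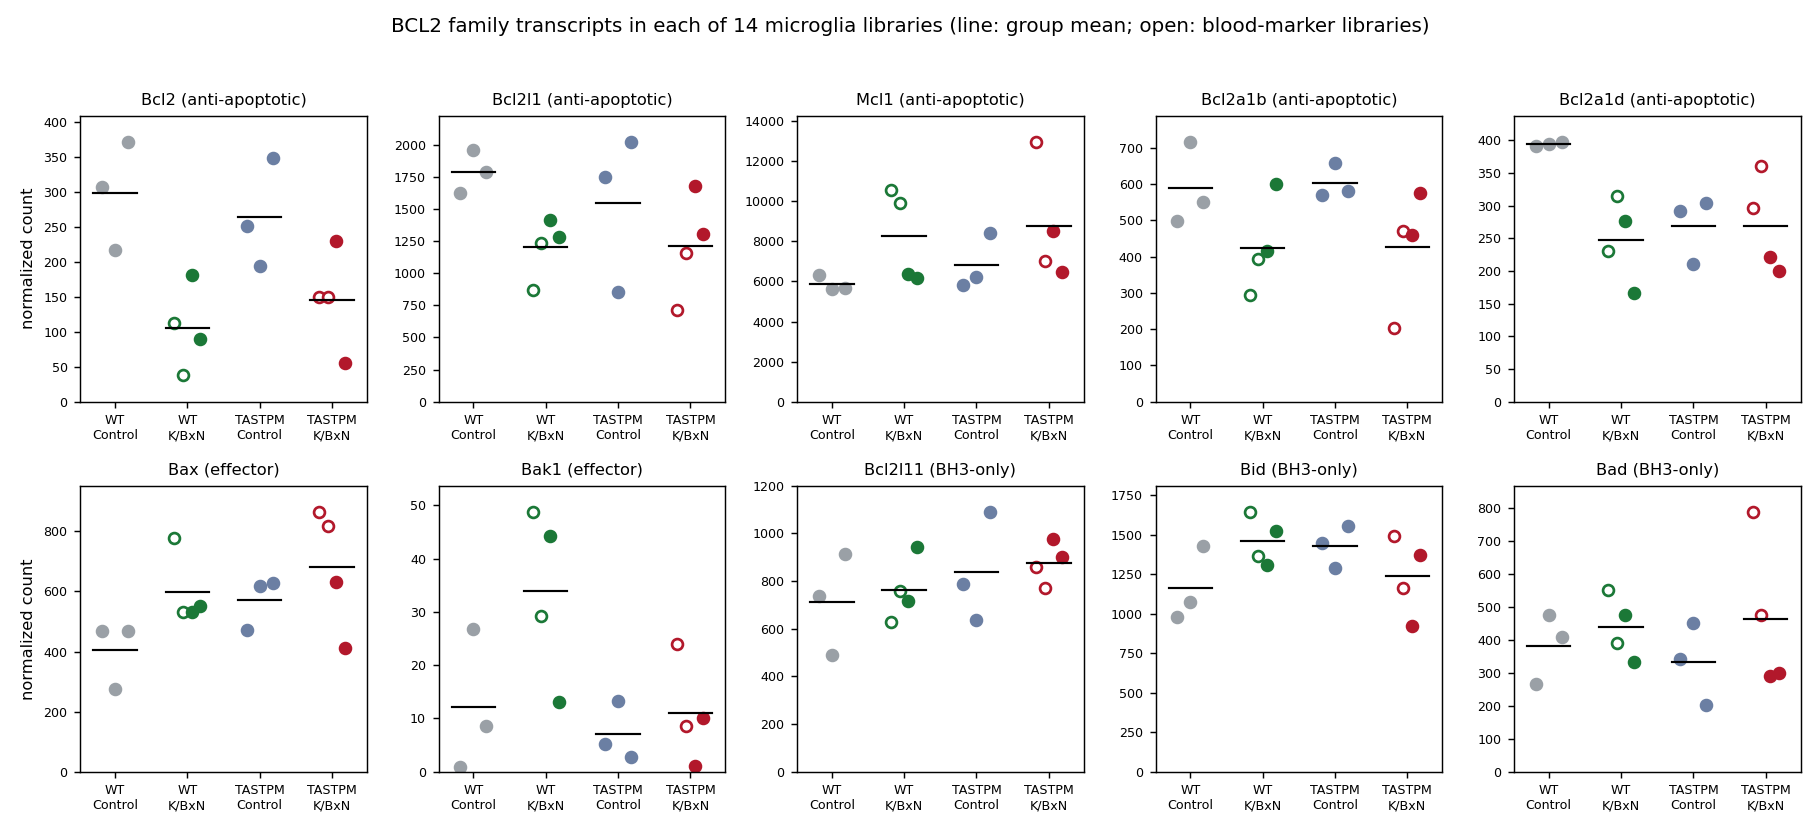
Normalised counts of the 10 members (vertical axes, each starting at 0) in the 14 libraries by group, with open circles for the 4 blood-marker libraries and a line at each group mean. Bcl2 means were 298 and 105 in WT Control ST and K/BxN ST, while Bid and Bcl2l11 overlapped between all groups.

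Of the effectors, Bax was the member that lay wholly above in WT. Libraries after K/BxN serum held 779, 530.5, 530.4 and 551 normalised counts, and controls 469, 276 and 468 (exact permutation p of 0.0286, the smallest possible). The log2 fold change was 0.58 (SE 0.31, adjusted limma p of 0.714). It was 0.46 without the blood-marker libraries, 0.28 with the neutrophil and monocyte covariate and 0.33 without the second control library. In TASTPM they held 865, 816, 632 and 411, and controls 473, 617 and 629, for a log2 fold change of 0.20 (SE 0.31, adjusted limma p of 0.968) that became −0.16 without the blood-marker libraries and −0.015 with the sex-linked covariate. Leaving out 1 library moved it to between 0.069 (without K/BxN ST replicate 1) and 0.43 (without replicate 4). Bak1 was close to the limit of detection, with 1 to 54 reads and fewer than 10 reads in 7 of 14 libraries. All 4 WT K/BxN ST libraries reached 10 reads but only 3 of the other 10 did, so Bak1 passed the filter through the group in which it was highest, and comparisons with that group are given as a description with no test. WT libraries held 48.8, 29.2, 44.2 and 13.1 normalised counts after K/BxN serum, with controls at 0.937, 26.8 and 8.60. TASTPM libraries held 23.9, 8.56, 1.17 and 10.2, with controls at 5.22, 13.3 and 2.73. The log2 fold changes of Bak1, 1.96 in WT and 0.33 in TASTPM, each had an SE of 1.15. The WT value was 0.94 without the first control library and 2.86 without the second.

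The BH3-only members overlapped between serum groups in both genotypes. Bcl2l11, which encodes BIM, the initiator engaged when growth factors are withdrawn, ranged from 629.6 to 943 normalised counts in WT K/BxN ST and from 489 to 915 in WT Control ST. Its log2 fold change was 0.13 in WT and 0.10 in TASTPM (SE 0.26 in each; adjusted limma p of 0.916 and 0.980), and 0.25 and 0.20 without the blood-marker libraries. Leaving out 1 library moved the value of Bcl2l11 to between −0.12 and 0.33 in WT and between −0.087 and 0.30 in TASTPM. Bid, which links death receptors to the mitochondria, held 1647, 1364, 1307 and 1522 normalised counts after K/BxN serum in WT, with controls at 981, 1072 and 1429. In TASTPM it held 1495, 1165, 921 and 1372, with controls at 1446, 1288 and 1556. The WT values overlapped in 1429, the highest Control ST library, and the TASTPM values were intermingled. Its log2 fold change was 0.34 in WT and −0.23 in TASTPM (SE 0.21 in each; adjusted limma p of 0.756 and 0.964), and 0.30 and −0.34 without the blood-marker libraries. Without TASTPM K/BxN ST replicate 3 the TASTPM value of Bid was −0.093. Bad, which is held inactive by survival kinases, ranged from 331 to 552 in WT K/BxN ST and from 265 to 474 in WT Control ST. Its log2 fold change was 0.21 in WT and 0.43 in TASTPM (SE 0.40 in each; adjusted limma p of 0.911 and 0.964). These became 0.095 and −0.092 without the blood-marker libraries. Leaving out 1 library moved the TASTPM value of Bad to between 0.11 (without the last control library) and 0.69 (without the second), and to 0.14 without K/BxN ST replicate 1.

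**Figure D3:**
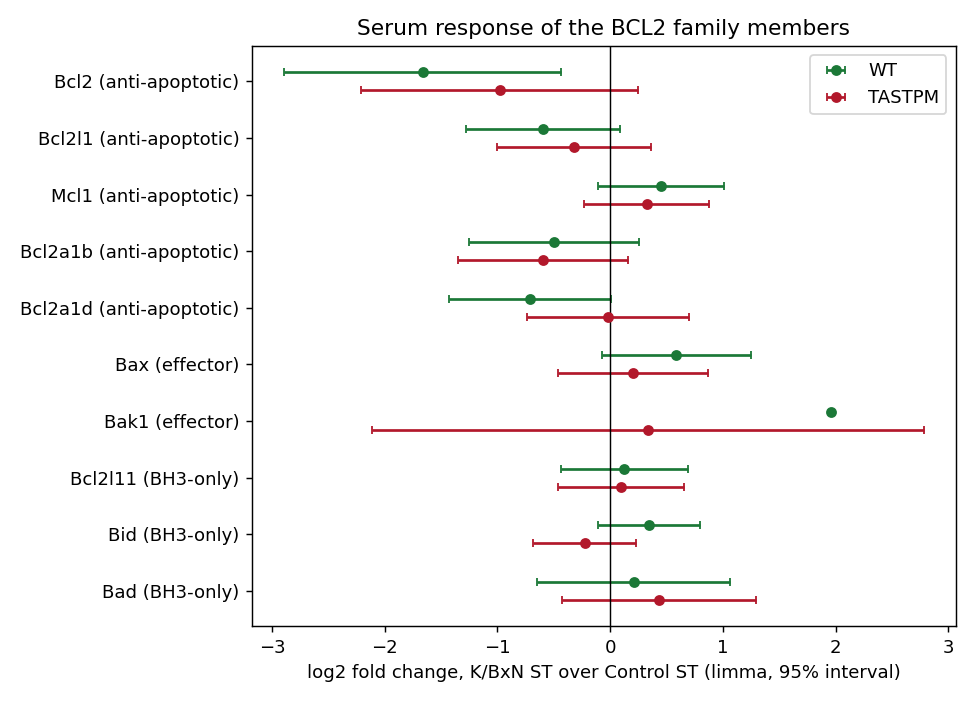
Log2 fold change of K/BxN ST over Control ST (horizontal axis) for each member in WT (green) and TASTPM (red), with 95% intervals from limma for all but Bak1 in WT, which is plotted as a value alone. The WT interval of Bcl2, from −2.89 to −0.44, lies wholly below 0, before adjustment over all genes, and every other interval drawn reaches across 0.

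By role, 4 of 5 anti-apoptotic members had a negative log2 fold change in WT and 4 of 5 in TASTPM, Mcl1 being positive in each. Of the effector and BH3-only members other than Bak1, which is left out for the way it passed the filter, 4 of 4 were positive in WT and 3 of 4 in TASTPM. Over all genes tested 54.0% were positive in WT and 50.5% in TASTPM. Without the blood-marker libraries the WT counts by role were as before. In TASTPM 3 of 5 anti-apoptotic members were then negative and 1 of the 4 effector and BH3-only members (Bcl2l11) was positive. Other settings turned WT signs. Bad became −0.10 with the neutrophil and monocyte covariate and −0.034 without WT Control ST replicate 1, and Bcl2l11 −0.12 without WT Control ST replicate 2. Bcl2a1b and Bcl2a1d may share reads, so their signs are not independent. In WT 3 of 10 members (Bcl2, Bcl2l1 and Bcl2a1d) had every K/BxN ST library below every Control ST library, as did 3.71% of all genes tested, and 1 of 10 (Bax) had every library above, as did 3.67%. In TASTPM 0 of 10 members were separated in either direction, against 2.74% below and 2.67% above over all genes. None of these members was called, and they were chosen with earlier results of these data known.

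The blood-marker libraries stood apart from the other K/BxN ST libraries in 1 of 10 members, Bcl2l1, and the part of these markers in the values was not tested. Bcl2l1 ranged from 711 to 1231 in the blood-marker libraries, wholly below the 1284 to 1675 of the other K/BxN ST libraries, as did 10.1% of all genes tested, with 14.4% wholly above. The ranges of the other members overlapped. Mcl1 ranged from 7027 to 12984 against 6165 to 8546, Bax from 530.5 to 865 against 411 to 632, and Bad from 391 to 788 against 291 to 475. Bcl2a1b ranged from 203 to 469.9 against 414 to 599.7, and every blood-marker library lay below all 6 Control ST libraries, as it did for Bcl2 and for 3.94% of all genes tested (8.96% lay wholly above). Bcl2 did not separate the K/BxN ST libraries, with 38.1 to 149.7 in the blood-marker libraries and 55.3 to 229 in the others, beside 194 to 372 in Control ST.

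**Figure D4:**
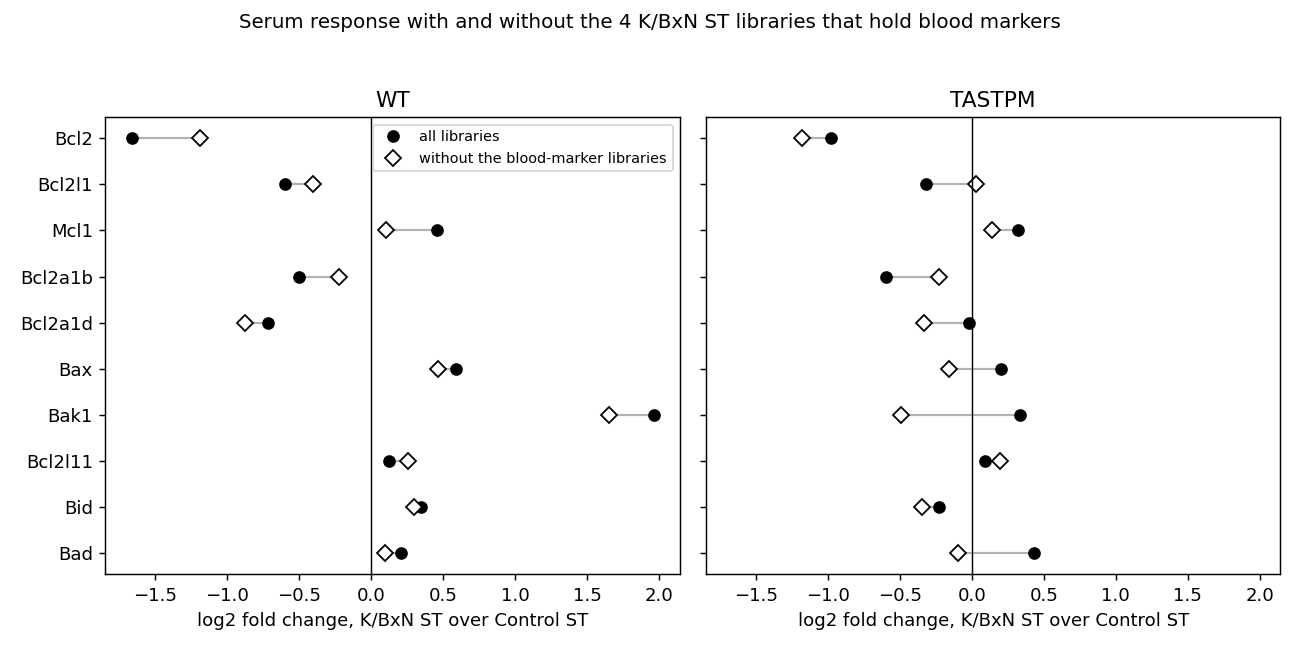
Log2 fold change of K/BxN ST over Control ST (horizontal axis) for the 10 members in WT (left) and TASTPM (right), with all libraries (filled circles) and without the 4 blood-marker libraries (open diamonds). Bcl2 was at −1.19 and −1.18 without them, and Bcl2l1, Bax, Bak1 and Bad changed sign in TASTPM.

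A comparison added after the data were seen averaged the serum effect over both genotypes in the same fit. limma called 0 of the members other than Bak1 and 0% of all genes, edgeR 0 members and DESeq2 0 members (DESeq2 called 1.42% of all genes). Bcl2 and Bcl2a1b were lower at an unadjusted p below 0.05, as were 3.46% of all genes. Of all genes 9.25% stood there, with 5.79% higher. Bcl2 had a median of 131 normalised counts over 8 K/BxN ST libraries and 279 over 6 Control ST libraries, and 7 of the 8 lay below every Control ST library. Its averaged log2 fold change was −1.32 (SE 0.41, adjusted limma p of 0.515; exact permutation within each genotype, p of 0.00571). DESeq2 gave Bcl2 an adjusted p of 0.116 and edgeR one of 0.380 (edgeR quasi-likelihood test). For Bcl2a1b the averaged log2 fold change was −0.55 (SE 0.25, adjusted limma p of 0.536; exact permutation within each genotype, p of 0.0229), and −0.45 for the 3 summed copies. Without the blood-marker libraries the averaged value was −1.19 for Bcl2 and −0.23 for Bcl2a1b.

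The interaction term asked whether the serum response was unequal between WT and TASTPM. Of the members other than Bak1, limma, edgeR and DESeq2 each called 0, where 0%, 0% and 0.0949% of all genes were called. Of these members 0 had an unadjusted limma p below 0.05 (3.04% of all genes). The smallest unadjusted p was that of Bid, whose interaction was −0.57 on the log2 scale, a lower effect in TASTPM than in WT (SE 0.30, adjusted limma p of 0.999). Bcl2 had an interaction of 0.69 (SE 0.81, adjusted limma p of 0.999), which was 0.01 without the blood-marker libraries, 0.27 without the second WT K/BxN ST library, 0.41 without TASTPM K/BxN ST replicate 3 and 1.09 without replicate 4. Bcl2a1d had 0.70 (SE 0.48, adjusted limma p of 0.999), 0.37 with the sex-linked covariate and 0.08 once the A1 copies were summed.

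TASTPM was then compared with WT under the same serum. Under Control ST, limma, edgeR and DESeq2 called 0 of 10 members, where 0%, 0% and 0.324% of all genes were called, and 0 members had an unadjusted limma p below 0.05 (5.57% of all genes). Bax was higher in every TASTPM library, with 473 to 629 against 276 to 469 normalised counts, a log2 fold change of 0.53 (SE 0.33, adjusted limma p of 0.901; exact permutation p of 0.100, the smallest that 3 against 3 allow). It was 0.28 without the second WT control library. Bcl2a1d was lower in every TASTPM library, with 211 to 304 against 392 to 398, a log2 fold change of −0.57 (SE 0.36, adjusted limma p of 0.906). These were 1 of 10 members in each direction, beside 4.97% of all genes wholly above and 4.71% wholly below. For the 3 A1 copies summed the log2 fold change was 0.09. Under K/BxN ST, limma, edgeR and DESeq2 called 0 of the members other than Bak1 and 0% of all genes. Of these members 0 had an unadjusted limma p below 0.05 (1.91% of all genes). Bak1, at 1 to 54 reads, had a log2 fold change of −1.84 (SE 1.06; −1.18 without TASTPM K/BxN ST replicate 3), again a description, since it involves WT K/BxN ST. The log2 fold changes of the other members lay between −0.26 and 0.50, and 0 of 10 members were separated between genotypes, against 1.16% of all genes wholly above and 0.672% wholly below.

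Other genes of the pathway were counted from lists written with earlier results known. Of 14 further BCL2 family genes 9 are listed and 8 were tested, of 12 genes acting downstream of the mitochondria (Apaf1, caspases, inhibitor of apoptosis genes and others) 12 were tested, and of 8 genes of the death receptor arm 7 were tested. limma called 0 genes of these lists in either genotype. In WT 2 of the 27 tested (7.41%) stood at an unadjusted p below 0.05, a share near the 7.13% of all genes, so their values are given as a description. The BH3-only gene Bik had 0 to 30.7 normalised counts in WT K/BxN ST and 57.0 to 107 in WT Control ST (log2 fold change −2.80, standard error 1.06, adjusted limma p of 0.668). Pmaip1, which encodes the BH3-only protein NOXA, a ligand of MCL1 and A1, had 161 to 383 and 26.8 to 116 (log2 fold change 1.77, standard error 0.75, adjusted limma p of 0.684). Without the blood-marker libraries, a setting added after the data were seen for these genes, 2 WT K/BxN ST libraries remained. The WT values were then −4.07 for Bik and 1.23 for Pmaip1. The library with 0 normalised counts of Bik was among those that remained, so −4.07 is not read as a stronger effect. That library also enters the −2.80 and the averaged Bik values below. In TASTPM 0 of 27 stood at that level, against 4.22% of all genes. In the averaged comparison 2 of 27 (7.41%) did, against 9.25% of all genes. They were Bik (log2 fold change −1.77, adjusted limma p of 0.536) and Birc3, an inhibitor of apoptosis gene induced by NF-κB (log2 fold change 0.82, standard error 0.30, adjusted limma p of 0.532), at −2.31 and 0.36 without the blood-marker libraries.

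Genes whose log2 values followed those of 2 members most closely over the 14 libraries were named as a description. For Bcl2 these were Tnf with a Pearson r of 0.88, Mov10 with 0.81, Rnf8 with 0.78, 2510046G10Rik and Manf, among 12644 genes compared. For Bcl2a1b they were Abhd6 with 0.94, Lgmn, Maf, Mir1931 and Ndfip2, each at 0.90 or above. Tnf ran from 0 to 154 normalised counts and Mir1931 from 2.08 to 32.7, so low counts enter their r. Each gene was picked as among the highest of 12644. The libraries share serum, genotype and the microglia share of their reads, so such an r does not separate these.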

How the data were processed

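Sorted dorsal horn microglia were profiled by bulk RNA-seq in 14 libraries. cDNA was amplified by the authors (SMART-Seq v4), sequenced as 150-base paired ends, aligned to GRCm39 with HISAT2 2.1 and counted on Ensembl genes with featureCounts 1.5.2 (versions per the submitters' processing notes). The deposited values are a normalised signal: whole reads on each gene, scaled by 1 factor per library. Whole reads were recovered for 100% of values (tolerance 0.01 read), with 14223015 to 20239175 reads per library. Of 14336 entries 7 repeated a gene and were dropped. Columns were joined to groups by the group named above them, and 4 of the 14 could also be joined to a numbered sample.

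Values were analysed as log2(normalised count + 1), which understates the fold changes of low genes, in the 12645 genes that reached 10 reads in 7 or more libraries. limma 3.58.1 (R 4.3.3) was fitted with a trend to all 4 groups, with Benjamini-Hochberg adjustment over all genes tested and calls at an adjusted p below 0.05 and an absolute log2 fold change above 1. The study used DESeq2 on counts. At the same fold change and adjusted p it reported more genes in each genotype than DESeq2 called here, 127 in WT and 16 in TASTPM. Here edgeR 4.0.16 (quasi-likelihood) and DESeq2 1.42.0 on the recovered reads were alternatives, as were other scalings, pseudocounts, filters, variance priors, covariates, summed A1 copies and left-out libraries. The scripts were tested on simulated data. Single members were also compared by two-sided exact permutation tests. Intervals are 95% limma intervals.

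The members, gene lists, marker lists and tests were chosen with earlier results of these data known. Given library by library were the 5 members whose smallest unadjusted p over the planned comparisons was lowest, and both A1 copies. Mcl1 and Bak1, the most and least abundant, were added after their values were seen, as was the comparison averaged over genotypes. Pathway genes were named at an unadjusted p below 0.05, and for Bcl2 and Bcl2a1b the 5 genes with the highest r. Positions, exon lengths and A1 sequences are from GENCODE vM39 on GRCm39, an annotation later than the authors' release. Some details of the model and of single markers are not reported here.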

Additional observations from a re-analysis of the deposited data

Results flagged for a closer look

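Bax in WT K/BxN ST had 1 library apart from the others. Its highest value, 779 normalised counts, lay well above the other 3 libraries, which had 530.4 to 551. The gap took up 0.918 of the range of the group, above the 95% critical value of Dixon's test for 4 samples. This library is one of the blood-marker libraries. Chance alone gives about 1 such value in 20 groups, and 20 groups of 4 libraries were examined.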

How the results depend on the processing

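No paired analysis was possible because the labels give every sample its own number. The count of members called was 0 in all 6 comparisons under each of their 22 to 30 alternatives (155 recomputed counts), whether or not Bak1 is counted. Of 935 recomputed log2 fold changes of the named members, 909 kept their direction and 0 crossed the threshold, with 0.116 the lowest adjusted p (DESeq2, Bcl2, averaged over genotypes). Alternatives that changed only the filter, the variance prior or the groups fitted returned the same log2 fold change. Their direction could not differ, so the tally overstates how far direction was put to a test. Bcl2 in WT ranged from −1.99 to −1.19 (adjusted p 0.280 to 1). Leaving out 1 library moved Bcl2 in TASTPM to between −1.25 and −0.57, Bcl2l1 in TASTPM to between −0.70 and −0.08, Bax in WT to between 0.33 and 0.71 and Bak1 in WT to between 0.94 and 2.86. The cause of the reversals was not tested. In WT, Bad became −0.10 with the neutrophil and monocyte covariate and −0.034 without WT Control ST replicate 1 (leaving out 1 library gave −0.034 to 0.38), and Bcl2l11 −0.12 without WT Control ST replicate 2 (−0.12 to 0.33). In TASTPM, Bcl2a1d became 0.0029 with library totals, 0.0079 with edgeR and 0.0050 with DESeq2, and 0.063, 0.11, 0.050 and 0.081 without K/BxN ST replicates 3 and 4 and Control ST replicates 1 and 3 (leaving out 1 library gave −0.18 to 0.11). Bcl2l1 became 0.027 with the neutrophil and monocyte covariate and 0.033 without the blood-marker libraries. Bax became −0.15 and −0.16 with these 2 settings and −0.015 with a sex-linked covariate. Bak1 became −0.22 and −0.49 with them, −0.17 without K/BxN ST replicate 1 and −0.11 without Control ST replicate 3. Bcl2l11 became −0.087 without Control ST replicate 2 (−0.087 to 0.30) and Bad −0.092 without the blood-marker libraries. Under Control ST, the TASTPM value of Bcl2a1d became 0.086 with the A1 copies summed. Averaged over genotypes, Bid became −0.062 with the covariate and −0.021 without the blood-marker libraries, Bad −0.014 with the covariate, and Bcl2l11 −0.014 without WT Control ST replicate 2 (−0.014 to 0.21). Depth limits Bak1 (1 to 54 reads) most. Replicate numbers outside TASTPM K/BxN ST are the order of the deposited values.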
